A study of Mus musculus with 41 samples.

Results

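The genes of the cytosolic ribosome were followed through 41 mouse gut libraries. A row counted as a member when its symbol was Rpl or Rps with a number and at most 1 final letter a, l, x or y, or when it was Rpsa, Rplp0, Rplp1 or Rplp2; 80 of the 23366 gene rows met this, 31 for the small subunit and 49 for the large. Each library was poly(A) RNA from 250 sorted cells of mixed C57BL/6 CD1 mice, amplified over 15 PCR cycles and read as single 50-base reads. At embryonic day 11.5 (E11.5), 1 embryo gave each library by the protocol, and wild-type and Id2KO embryos each gave 3 libraries of sorted epithelium (EpCAM+) and 3 of mesenchyme (EpCAM-), and Id2KO embryos 3 more of Lgr5-EGFP+EpCAM+ cells. At E13.5, 4 libraries of EpCAM+ and 4 of Lgr5-EGFP+EpCAM+ cells came from pools of 6 to 12 embryos with no genotype label. Adult cells at postnatal day 60 were Lgr5+ intestinal stem cells: 4 libraries with no segment or genotype label, and 2 libraries for each of the anterior, middle and posterior segments from wild-type and Id2KO mice, with 2 more of Tomato+ posterior cells from Id2KO mice. The Lgr5-EGFP reporter marks the sorted Lgr5+ cells; the Id2 allele, the source of the Tomato label and the number of adult mice behind a library are not given in the sources used here. Nothing states that same-numbered libraries of different fractions came from 1 embryo, and where replicates may share an animal the p-values below measure only the spread between these libraries.

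Each ribosome is built from a small and a large subunit, each of ribosomal RNA and a fixed set of proteins, nearly all encoded by a single intron-bearing gene. Because the proteins are needed in equal amounts, their mRNAs are among the most abundant of growing cells, and many begin with a C and a run of pyrimidines, the 5′ terminal oligopyrimidine (TOP) start through which mTOR signalling controls their translation. Their mRNAs have also been copied back into mammalian genomes many times, which left processed pseudogenes that resemble the parent's coding sequence. Stem cells at the base of intestinal crypts divide often and renew the gut lining, which calls for steady protein synthesis.

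The starts of 4 members described below show the TOP form. They are RefSeq windows of 15 bases before to 15 bases from the annotated start on GRCm38.p6, with the run that begins with C in capitals.
Rps18: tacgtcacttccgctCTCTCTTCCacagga
Rpl15: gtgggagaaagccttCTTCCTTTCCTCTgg
Rpl35: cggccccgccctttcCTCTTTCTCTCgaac
Rpl35a: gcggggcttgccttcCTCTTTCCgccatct
These windows lie at chr17:33955651-33955680, chr14:18270972-18271001, chr2:39005117-39005146 and chr16:33056467-33056496, the last on the plus strand and the others on the minus strand. A C followed by at least 4 more pyrimidines, on the sense strand and within 3 bases of the annotated start, was present for 24 of the 60 members with a start window, or 40%, against 13.5% of 27025 genes. It was present for 36.4% of 11 translation factors of the TOP class, 13% of 69 mitochondrial ribosomal protein genes and 4.35% of 23 ribosome biogenesis genes. A match in these letters is not a measured start.

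At the sites shown here, 1 coding base separated the reference gene from its annotated copies over the whole stretch printed. Annotated GENCODE M21 transcripts (GRCm38) were searched for every 50-base window of a member's coding sequence; a window was unique when no other annotated gene held it. The stretches below are the coding strand with 24 bases on each side of the base in capitals, which is the base that differs from the annotated copies; the flanks are identical. Coding bases are counted from 1 at the A of the start codon.
Rpl3: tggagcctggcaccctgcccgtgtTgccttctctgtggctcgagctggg
Gm12816: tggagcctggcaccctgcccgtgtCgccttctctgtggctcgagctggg
Rps18: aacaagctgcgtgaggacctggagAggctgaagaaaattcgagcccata
Gm45454: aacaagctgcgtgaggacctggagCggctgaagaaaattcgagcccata
Rpl35a: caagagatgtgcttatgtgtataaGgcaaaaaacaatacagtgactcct
Gm10029: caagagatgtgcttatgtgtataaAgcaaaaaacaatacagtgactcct
Rps2: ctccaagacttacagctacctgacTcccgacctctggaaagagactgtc
Gm11249: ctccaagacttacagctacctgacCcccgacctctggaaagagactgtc
In Rpl3 the base lies in exon 6 at chromosome 15 position 80079753, where T786C separated it from 3 annotated copies and T786A from 1 more. In Rps18 it lies in exon 4 at chromosome 17 position 33952267, with A337C in 7 annotated copies and A337T in 1. In Rpl35a it lies in exon 3 at chromosome 16 position 33057534, with G156A in 7 annotated copies, and its stretch spans an intron. Each of these 3 genes had 50 unique coding windows, all of them covering that base. Rps2 had 132, in 3 stretches, and T756C in exon 4 at chromosome 17 position 24721669 separated it from 22 annotated copies. Rpl29, at chr9:106429454-106431568, had 42 unique windows between coding bases 374 and 472 and shared other windows with 84 annotated genes, 81 of them pseudogenes. A total of 13 members had exactly 1 such compared base. The deposited counts were made on mm9, so these positions describe the reference and not the alignments.

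Gene counts per library were 31725453 to 38937235 at E11.5, 29997416 to 51212645 at E13.5, 28165066 to 31105607 in the unsegmented adult stem cells and 13596192 to 20342858 in the adult segments. Id2 was 5308 to 6600 CPM (the count scaled to the library's total gene count) in wild-type and 159 to 182 CPM in Id2KO E11.5 EpCAM+ cells, and 2180 to 2760 against 114 to 172 CPM in EpCAM- cells, so it followed the labels there. In the adult segments Id2 went against them: it was 64.1 to 125 CPM in wild-type libraries and 98.9 to 199 CPM in those labelled Id2KO, higher by 0.66 ± 0.11 (log2, SE; edgeR quasi-likelihood test, adjusted p = 0.00249). The adult contrast is therefore one between libraries so labelled. Summed epithelial markers (12 genes) were 2880 to 15320 CPM in the sorted epithelial and stem cell groups and 67.9 to 129 CPM in the EpCAM- groups. Red cell genes, 9 in all, summed to 222100 to 269000 CPM in wild-type and 24740 to 59620 CPM in Id2KO EpCAM- libraries.

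The members differed by several orders of magnitude in recorded level, and the order broadly followed how much of each coding sequence is unique. The mean level over the 15 groups was highest for Rpl4, a large subunit protein at the exit tunnel, at 2428 CPM. Other high members were Rps3, of the small subunit, at 1349 CPM, the stalk protein Rplp0 at 919.7 CPM and Rpl8 at 700.3 CPM. At the other end Rpl26 was at 0.0040 CPM with 7 counts in all libraries together, and Rps29, of the small subunit and with no unique coding window, was at 1.26 CPM. Per kilobase of coding sequence, the 29 members with no unique coding window had a median of 9.42 CPM. The median was 131 CPM per kilobase for the 28 broadly used members with above 0 to 20% unique windows, 424 for the 9 with over 20 to 50%, and 1070 for the 11 with over 50%. Spearman's rho between the unique share and the level per coding kilobase was 0.68 to 0.75 in each of the 15 groups, over 77 members that share libraries and depth; Rpl3l, Rpl10l and Rpl39l were left out of it. Rpl41, whose coding sequence of 75 bases has 26 windows and none unique, was an exception at 2019 CPM per kilobase. Its annotated mRNA has 582 bases and 56.1% unique windows, so division by the short coding length raises its value. Both the unique share and the level per kilobase use the coding sequence only, while reads can come from the whole mRNA. Over the whole annotated mRNA, members with no unique coding window had from 1.35% (Rps27) to 73.8% (Rpl21) unique windows, with Rps29 at 64.2%. Levels were not set against that wider share. The part of multiply aligned reads in these levels was not tested.

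**Figure D1:**
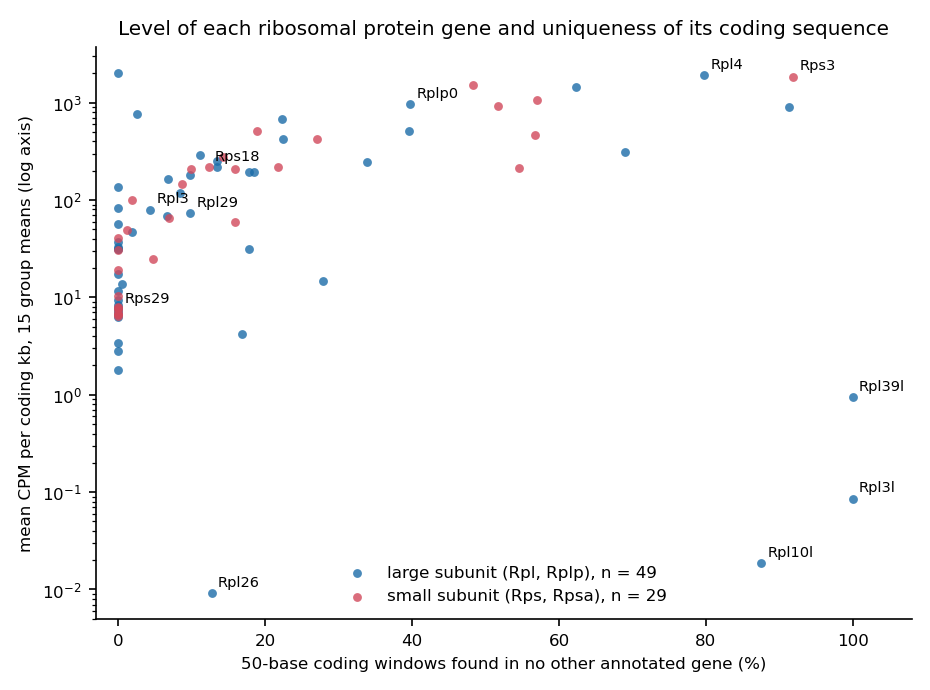
Each point is 1 of 78 members drawn: the horizontal axis is the percentage of its 50-base coding windows found in no other annotated gene and the vertical axis its mean CPM per coding kilobase over the 15 groups, on a log axis, with colours for the subunits. Levels climb with the unique share, the medians over the members being 9.42 at no unique window and 1070 above 50%, with Rpl26 and the paralogues Rpl3l, Rpl10l and Rpl39l below.

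Tissue-restricted paralogues were near 0. Rpl10l, an Rpl10 paralogue of germ cells, had 18 counts over 2 libraries. Rpl3l, an Rpl3 paralogue of muscle, had 123 counts over 14 libraries, and Rpl39l, another germ cell paralogue, 222 counts over 8 libraries with a highest value of 2.65 CPM in replicate 2 of Id2KO E11.5 epithelium. All 3 have unique coding sequence, at 100, 87.5 and 100% for Rpl3l, Rpl10l and Rpl39l. Rps27l, a paralogue of Rps27 that p53 can induce, was recorded at 424 ± 89.9 CPM in wild-type E11.5 epithelium (SD, n = 3) and 338 ± 17.8 CPM in adult stem cells (n = 4), while Rps27, with no unique coding window, was at 0.492 to 4.15 CPM over all libraries. Rps4x, the X-linked small subunit gene, ranged over groups from 96.4 to 261 CPM, and neither Rps4y nor Rps4l is a row of the table.

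Of the 58 members with a mean of at least 5 CPM, Rpl21 varied least, with an SD of log2(CPM + 1) over group means of 0.32, followed by Rplp0 at 0.33, Rpl10a at 0.42, Rpl15 at 0.46 and Rpl4 at 0.50. The 5 that varied most were Rps18 at 2.48, Rpl3 at 2.34, Rpl29 at 1.92, Rps2 at 1.83 and Rpl35 at 1.77. Those 5 had 4.31 to 15.9% unique coding windows, and 28 of the 77 broadly used members had above 0 to 20%. Group means of Rplp0 ran from 644 ± 50.8 CPM in E11.5 Lgr5+ Id2KO cells to 1555 ± 182 CPM in adult stem cells, while those of Rps18 ran from 1.89 CPM in Tomato+ cells to 593 CPM in adult stem cells.

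**Figure D2:**
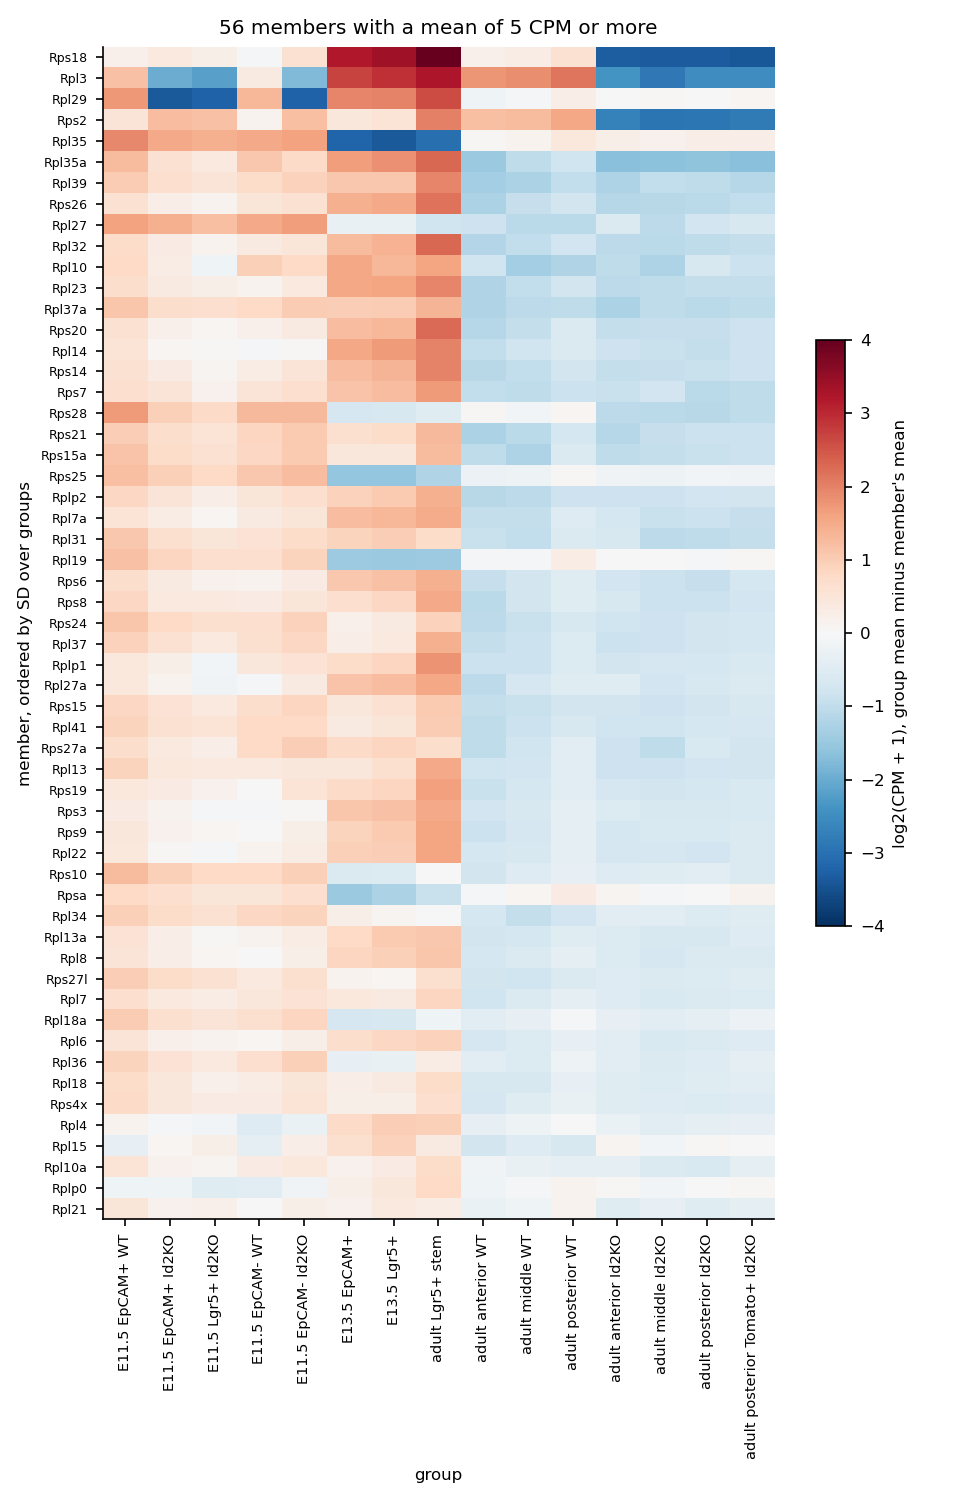
Rows are 56 members with a mean of at least 5 CPM, ordered by their SD over groups, and columns the 15 groups; colour is the log2(CPM + 1) group mean minus the member's own mean. Rps18, Rpl3, Rpl29, Rps2 and Rpl35 at the top change between blocks of groups, and most other rows are lowest in the adult segments.

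As a whole the members took the largest share of gene counts in the unsegmented adult stem cells and the smallest in the adult segments. The 80 members summed to 1.11 to 1.93% of gene counts over the 15 E11.5 libraries, 1.94 to 2.91% over the 8 at E13.5, 2.92 to 3.99% over the 4 adult stem cell libraries and 0.632 to 1.05% over the 14 segment libraries. The 4 ranges did not overlap. The last 2 of these sets are both adult Lgr5+ cells, and were the highest and the lowest. Multiply aligned entries, which these counts leave out, moved with this share: 17.6 to 22.3, 22.1 to 26.2, 25.4 to 30.4 and 12.0 to 15.4% of all entries in the same order. Entries outside genes were 12.0 to 22.1, 22.2 to 28.7, 23.2 to 31.0 and 7.12 to 9.35%. The part of either in the members' share was not tested, and library set and stage cannot be told apart. In these bulk libraries, fewer cells of a type and less RNA per cell cannot be told apart either.

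**Figure D3:**
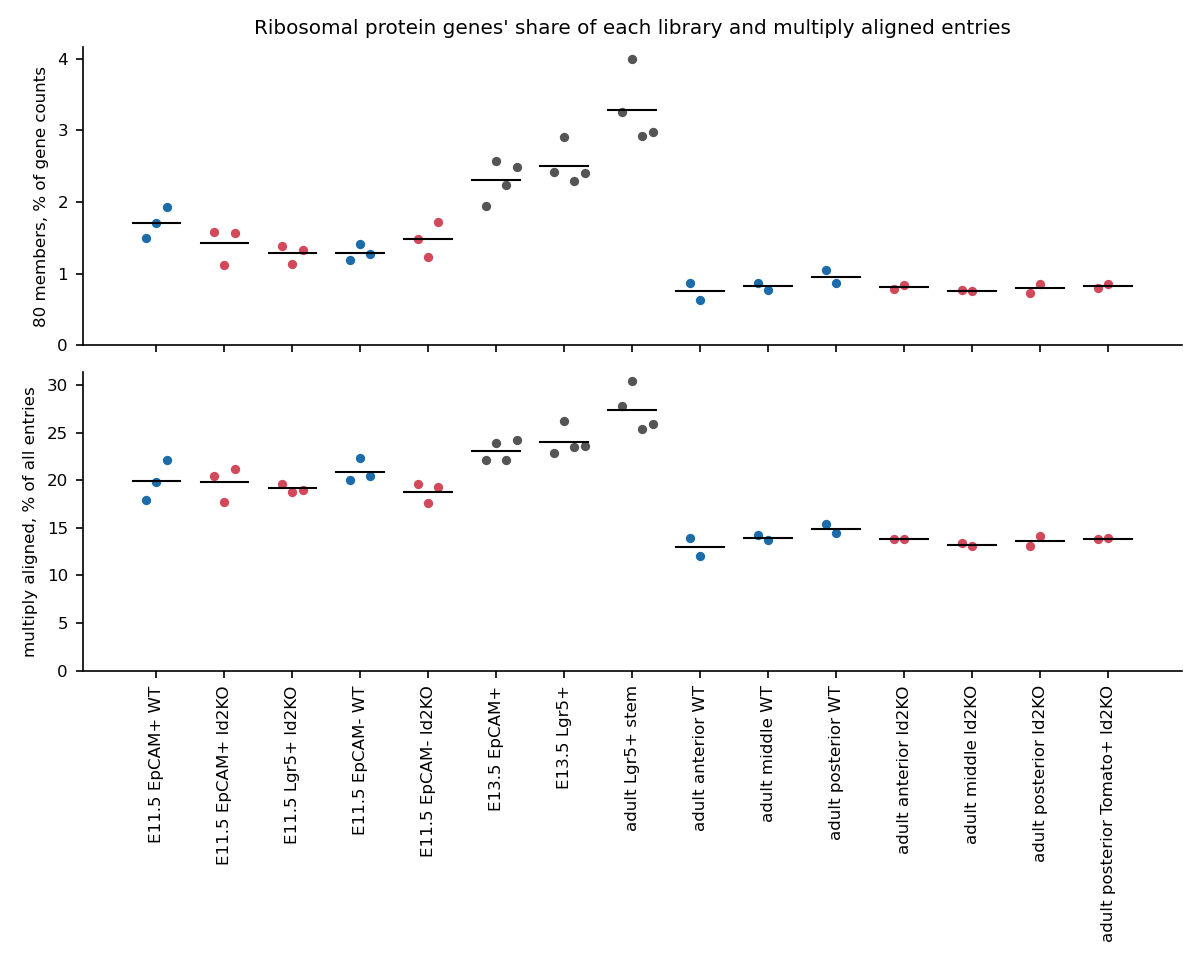
Points are the 41 libraries by group, with black lines at group means; the upper axis is the share of gene counts on the 80 members and the lower the share of all entries aligned to several places. The members' share is highest in the 4 adult stem cell libraries, up to 3.99%, and both shares are lowest in the 14 segment libraries; multiply aligned entries reach 30.4% in adult stem cells and 26.2% at E13.5, and those 2 sets overlap.

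In E11.5 epithelium 2 members differed between Id2KO and wild-type embryos, and both were lower. Rpl29, a large subunit protein that also binds heparan sulfate, was at 55.5, 67.0 and 74.2 CPM in the wild-type libraries and at 0.857, 1.03 and 0.968 CPM in the Id2KO libraries. Rpl3, which sits beside the peptidyl transferase centre, was at 80.2, 79.1 and 86.9 CPM in wild type and 6.46, 9.62 and 8.79 CPM in Id2KO. The genotypes did not overlap in either gene. Rpl29 fell by 6.07 ± 0.26 on the log2 scale (adjusted p = 3.67e-07) and Rpl3 fell by 3.27 ± 0.25 (adjusted p = 6.19e-05; edgeR quasi-likelihood test with Benjamini-Hochberg adjustment over all genes). The count was 2 of 77 members tested, where 1.66% of 15153 genes were called in either direction and 0.785% lower. The median log2 fold change was -0.28 over members and 0.01 over all genes, and 6 of 77 members had a positive value. Leaving out Id2KO replicate 2 brought the members' median to -0.10. Every wild-type E11.5 library held both Xist and the Y-linked Ddx3y, while each Id2KO library nearly lacked Xist or Ddx3y, as given below. Genotype and the embryos behind a library therefore cannot be told apart in this contrast.

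The same pair was lower in the mesenchyme. Rpl29 was at 47.8, 52.2 and 47.1 CPM in wild-type and 0.946, 0.770 and 1.65 CPM in Id2KO EpCAM- libraries, and Rpl3 at 39.6, 52.1 and 47.3 CPM against 5.29, 10.7 and 13.7 CPM. Again no Id2KO library reached a wild-type one. Rpl29 fell by 5.81 ± 0.37 (adjusted p = 3.01e-05) and Rpl3 fell by 2.60 ± 0.34 (adjusted p = 0.00269, edgeR). They were the 2 called of 76 members, against 0.881% of 13734 genes called in either direction and 0.852% lower. As in the epithelium, genotype and the embryos behind a library cannot be told apart. The E11.5 Lgr5+ Id2KO cells, for which there is no wild-type group, held Rpl29 at 1.06, 1.03 and 1.19 CPM and Rpl3 at 5.03, 7.26 and 8.93 CPM. Of 77 members, 0 were called for a genotype effect that differed between epithelium and mesenchyme by edgeR or DESeq2. By edgeR 93 of 15680 genes, or 0.593%, were called, so a count of 0 members says little. At an unadjusted p under 0.05 were 0 members and 1277 genes by edgeR. Wild-type and Id2KO EpCAM- libraries also differed in red cell genes, as given above, and scaling by library totals alone moved the median of all genes in that contrast from 0.01 to 0.38 and that of the members from -0.19 to 0.17; Rpl29 and Rpl3 were lower under both. The members' median was -0.39 without Id2KO replicate 3 and -0.00022 without Id2KO replicate 2.

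**Figure D4:**
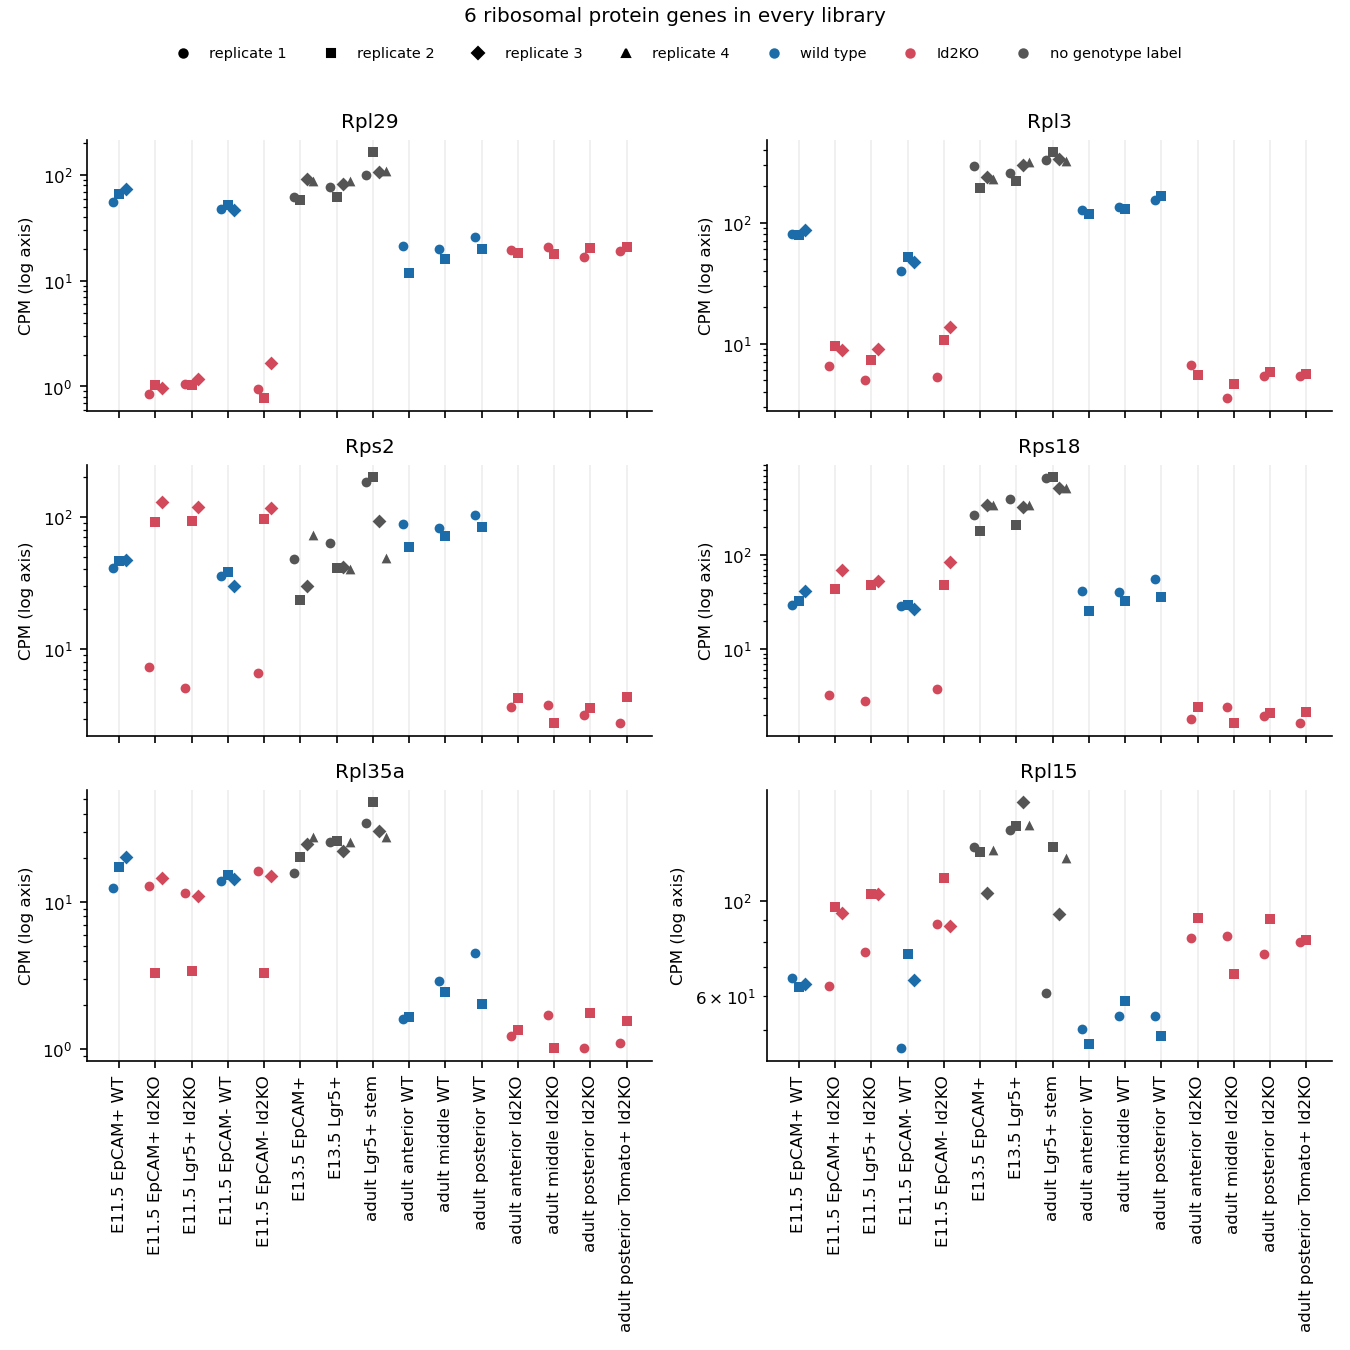
Each panel is 1 gene, with CPM on a log axis for every library in the 15 groups; colour gives the genotype label and marker shape the replicate number. Rpl29 is near 1 CPM in the 9 E11.5 Id2KO libraries alone, Rpl3 is low in both ages of Id2KO, Rps2 and Rps18 are low in replicate 1 of the E11.5 Id2KO fractions and in all 8 adult libraries labelled Id2KO, and Rpl35a is low in replicate 2 of the E11.5 Id2KO fractions.

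Within the E11.5 Id2KO libraries, other members split by replicate number in the same way in all 3 fractions. Rps2, a small subunit protein at the mRNA entry channel, was at 7.32, 5.12 and 6.68 CPM in replicate 1 of the EpCAM+, Lgr5+ and EpCAM- fractions, at 91.2, 92.9 and 96.0 CPM in replicate 2, and at 129, 119 and 116 CPM in replicate 3. Rps18, of the small subunit head, was at 3.23, 2.82 and 3.81 CPM in replicate 1, 43.7, 48.2 and 48.8 CPM in replicate 2, and 69.8, 53.6 and 83.6 CPM in replicate 3. Replicate 1 was thus low in every fraction for both genes, and the 6 wild-type libraries lay between, at 30.2 to 47.5 CPM for Rps2 and 26.6 to 41.1 CPM for Rps18. Rpl35a, whose human gene is mutated in Diamond-Blackfan anaemia, was low in replicate 2 instead. It was at 3.29, 3.42 and 3.29 CPM there, against 11.1 to 16.3 CPM in replicates 1 and 3. The members' summed share was also lowest in replicate 2 of each fraction, at 1.115, 1.137 and 1.236%, against 1.33 to 1.72% in replicates 1 and 3.

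A fit of replicate number over these 9 libraries, added after the values were seen, called Rps2 (adjusted p = 1.61e-05), Rps18 (9.56e-05), Rpl35a (0.0472) and Rps27l (0.0478), among others, by edgeR. In all it called 5 of 76 members, where 1.41% of 15058 genes were called. At an unadjusted p under 0.05 were 44 members and 2737 of the 15058 genes. The same fit over the 6 wild-type E11.5 libraries called 0 of 77 members and 0 of 14638 genes. At an unadjusted p under 0.05 it had 0 members and 315 genes. Between the 2 replicate numbers of the adult libraries labelled Id2KO, 0 of 76 members and 0.0154% of 13012 genes were called. That unadjusted p was reached by 0 members and 580 genes. In the adult wild-type libraries 0 of 76 members and 0 of 12662 genes were called, with 33 members and 1028 genes at an unadjusted p under 0.05. DESeq2 was not run on these added fits. Xist, expressed from the inactive X, was 874, 735 and 318 CPM in the 3 fractions of Id2KO replicate 1 and at most 1.48 CPM in replicates 2 and 3, and the Y-linked Ddx3y was at most 0.171 CPM in replicate 1 and 121 to 192 CPM in the others. Replicate 1 thus differed from the others in both transcripts in all 3 fractions. The 6 wild-type libraries all held both transcripts, with Xist at 152 to 575 CPM and Ddx3y at 9.23 to 25.8 CPM, which goes against 1 embryo behind each of them. The part of sex or of single embryos in the values of Rps2, Rps18 and Rpl35a was not tested.

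In the adult segments, libraries labelled Id2KO were lower for Rpl3, Rps2, Rps18 and Rps28 and higher for Rpl15, and Rpl29 did not pass. Rpl3 was at 117 to 166 CPM over the 6 wild-type libraries, with a median of 131.5, and at 3.51 to 6.64 CPM over the 8 labelled Id2KO, with a median of 5.44. Rps2 was at 59.1 to 103 CPM, median 82.5, against 2.76 to 4.41 CPM, median 3.65. Rps18 was at 25.7 to 55.9 CPM, median 38.0, against 1.62 to 2.42 CPM, median 2.01. The libraries labelled Id2KO lay below every wild-type library for each of the 3 genes. Id2 itself goes against these labels, so the direction is that of the labels only. Over the 3 segments Rpl3 fell by 4.75 ± 0.11, Rps2 fell by 4.52 ± 0.17 and Rps18 fell by 4.24 ± 0.21 (edgeR adjusted p = 3.37e-11, 5.5e-09 and 1.38e-07).

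Smaller shifts were seen in Rps28, a small subunit protein near the mRNA exit, and Rpl15, of the large subunit. Rps28, at 3.14 to 6.93 CPM in wild type and 1.33 to 2.25 CPM in libraries labelled Id2KO, fell by 1.47 ± 0.34 (adjusted p = 0.0193). This was lost on summing the 3 segments per genotype and replicate number, and on leaving out any 1 of 6 libraries, which were replicate 1 of wild-type anterior, middle and posterior, and anterior replicate 1, middle replicate 2 and posterior replicate 1 of those labelled Id2KO. Rpl15, at 46.3 to 58.5 CPM in wild type and 67.3 to 91.4 CPM in the others, rose by 0.64 ± 0.09 (adjusted p = 0.000837). Rpl29 was at 11.8 to 26.0 CPM in wild type, median 20.1, and within that range in every library labelled Id2KO, median 19.3, a difference of -0.02 (adjusted p = 0.988). In all, 5 of 76 members were called, against 7.75% of 13436 genes in either direction, 3.71% higher and 4.03% lower, a share near the background. The median log2 fold change was -0.03 over members and 0.01 over all genes, and the former ran from -0.11 to 0.10 on leaving out 1 library. Neither Rps28 nor Rpl15 has a unique coding window. Of 9 stress and immediate early genes, 8 were higher in the libraries labelled Id2KO, and their part was not tested.

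The genotype difference itself differed between ages for 4 members. In a fit of all 15 groups, added after the values were seen, the E11.5 EpCAM+ difference minus that of the adult segments was -6.07 ± 0.36 for Rpl29 (edgeR adjusted p = 6.02e-14), 1.45 ± 0.28 for Rpl3 (0.00392), 4.43 ± 1.02 for Rps18 (0.0253) and 5.28 ± 1.07 for Rps2 (0.00807). Rpl29 passed the genotype test at E11.5 and missed it in adults, Rps2 and Rps18 the reverse, and Rpl3 passed at both ages. These were 4 of 78 members tested, where 0.944% of 17475 genes were called. The adult side is a difference between labels, as above, and the E11.5 side carries the limit on embryos given above.

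No member was called between epithelium and mesenchyme of wild-type embryos, where 22.2% of 15680 genes were. By edgeR and by DESeq2, 0 of 77 members were called and 0 had an unadjusted p under 0.05. That unadjusted p was reached by 5401 genes by edgeR and 5613 by DESeq2. The members' median log2 fold change was -0.11. Rplp0 was at 795 ± 45.4 CPM in EpCAM+ and 653 ± 45.4 CPM in EpCAM- libraries (SD, n = 3 each), Rps3 at 1486 ± 145 and 1102 ± 142 CPM, and Rpl4 at 2526 ± 166 and 1587 ± 283 CPM. With library totals as the only scaling, 6 members were called higher in epithelium, and the median of all genes then stood at 0.43 rather than 0.01 and that of the members at 0.31. The members' median was 0.04 without EpCAM+ replicate 1, so its sign depends on these choices. All 5 red cell genes tested were lower in epithelium, and their part was not tested.

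Sorting for Lgr5 at either embryonic age gave no call among the members. In E11.5 Id2KO embryos, 0 of 77 members were called between Lgr5+ and all EpCAM+ cells by edgeR or DESeq2, 2 had an unadjusted p under 0.05, and 3.14% of 15153 genes were called. Of the values, 74 of 77 members had negative values, with a median of -0.22 against -0.01 over all genes. Without EpCAM+ replicate 2 the members' median was -0.40, and 25 of 77 members and 2747 of 15599 genes had an unadjusted p under 0.05. Without any other single library the median was -0.29 to -0.11. Markers moved with this contrast too: all 12 mesenchyme genes tested had positive values, with a median of 2.32 and 2 called, 2 of 7 enterocyte and 3 of 9 stress and immediate early genes were lower, and all 9 leucocyte genes had negative values, 1 of them called. Their part was not tested. Deviations of same-numbered libraries correlated at 0.154, 0.252 and 0.123 between these fractions, which does not decide whether they were paired. With the replicate number as a block 0 members were called as well. At E13.5, 0 of 76 members were called by either tool, against 1.75% of 13355 genes by edgeR. At an unadjusted p under 0.05 were 1 member and 1300 genes by edgeR. The median was 0.10, but -0.02 without EpCAM+ replicate 1 and 0.04 without Lgr5+ replicate 2. Anterior and posterior adult segments also gave 0 of 76 members by either tool, where 4.42% of 13436 genes were called, with 0 members at an unadjusted p under 0.05 by edgeR and 2 by DESeq2, and a median of -0.17 that ran from -0.37 to -0.05 on leaving out 1 library. The count of called members was 3, all lower in the anterior segment, without replicate 1 of the wild-type anterior segment.

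Between E11.5 and E13.5 the epithelium showed members moving both ways. In EpCAM+ cells 21 of 76 members were higher at E13.5 and 12 lower. Over all 14467 genes 40.4% were called, 19.3% higher and 21.1% lower. Counting both directions, the members' share was near the background. Among those higher, Rps3, which lies at the mRNA entry channel and has 91.9% unique coding windows, was at 1344, 1479 and 1634 CPM at E11.5 and at 2189, 2863, 2486 and 2692 CPM at E13.5. It rose by 0.98 ± 0.16 (edgeR adjusted p = 0.000377), and the ages did not overlap. Rps18 was at 29.5, 32.2 and 41.1 CPM against 265.4, 180.7, 339 and 338 CPM, a rise of 3.24 ± 0.27 (adjusted p = 1.73e-06). Rpl3 rose by 1.75 ± 0.18, Rpl14 by 1.18 ± 0.17, Rpl15 by 1.15 ± 0.16 and Rpl23 by 1.06 ± 0.21. Of the 11 broadly used members with over 50% unique coding windows, 7 were higher and 1 lower, and their median was 0.63, against 0.24 over all members tested and -0.04 over all genes. The members' median was 0.03 without E13.5 replicate 4, 0.06 without E11.5 replicate 1, and 0.04 both with the replicate number as a block and with library totals as the only scaling.

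The falls ran from 5.48 down to 0.64 on the log2 scale. Those lower were 4 of 29 members with no unique coding window, 6 of 27 with above 0 to 20%, 1 of 9 with over 20 to 50% and 1 of 11 with over 50%. Rpl35, at the polypeptide exit tunnel, was at 86.4, 105 and 122 CPM at E11.5 and at 1.82, 2.12, 2.03 and 2.21 CPM at E13.5. It fell by 5.48 ± 0.23 (edgeR adjusted p = 1.23e-08). Rps25, which some viral and cellular internal ribosome entry sites need, fell by 2.69 ± 0.22, Rpl19, of a bridge between the subunits, fell by 2.66 ± 0.24, Rps28 fell by 2.57 ± 0.37, Rpsa, also called the laminin receptor, fell by 2.17 ± 0.22, and Rpl27 fell by 1.83 ± 0.30. Those 6 had 0 to 8.44% unique coding windows, where 44 of all 80 members had under 10%. Rpl35 was at 1.19 to 2.54 CPM in the 8 E13.5 and 1.96 to 3.05 CPM in the 4 adult stem cell libraries, yet at 20.7 to 45.5 CPM in the 14 adult segment libraries and 55.3 to 122 CPM over all 15 at E11.5. Rpl19 had the same form, at 3.91 to 7.32 and 4.19 to 6.10 CPM against 12.4 to 21.3 and 22.6 to 40.5 CPM, as did Rpsa, at 10.9 to 22.8 and 17.5 to 27.8 CPM against 33.6 to 52.1 and 45.6 to 74.7 CPM. Rps18 was the mirror image, at 180.7 to 674 CPM in those 12 libraries and at most 83.6 CPM in the other 29. Scaled by library totals alone, 18 members were higher and 16 lower, with the median of all genes at -0.24, and leaving out 1 library gave 24 to 35 calls. By the protocol E11.5 libraries came from 1 embryo and E13.5 libraries from pools, so embryo number and age cannot be told apart, although Xist and Ddx3y in the wild-type E11.5 libraries go against that label. Of the marker lists, 7 of 8 leucocyte genes tested and 7 of 9 stress and immediate early genes were also lower at E13.5, and their part was not tested.

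**Figure D5:**
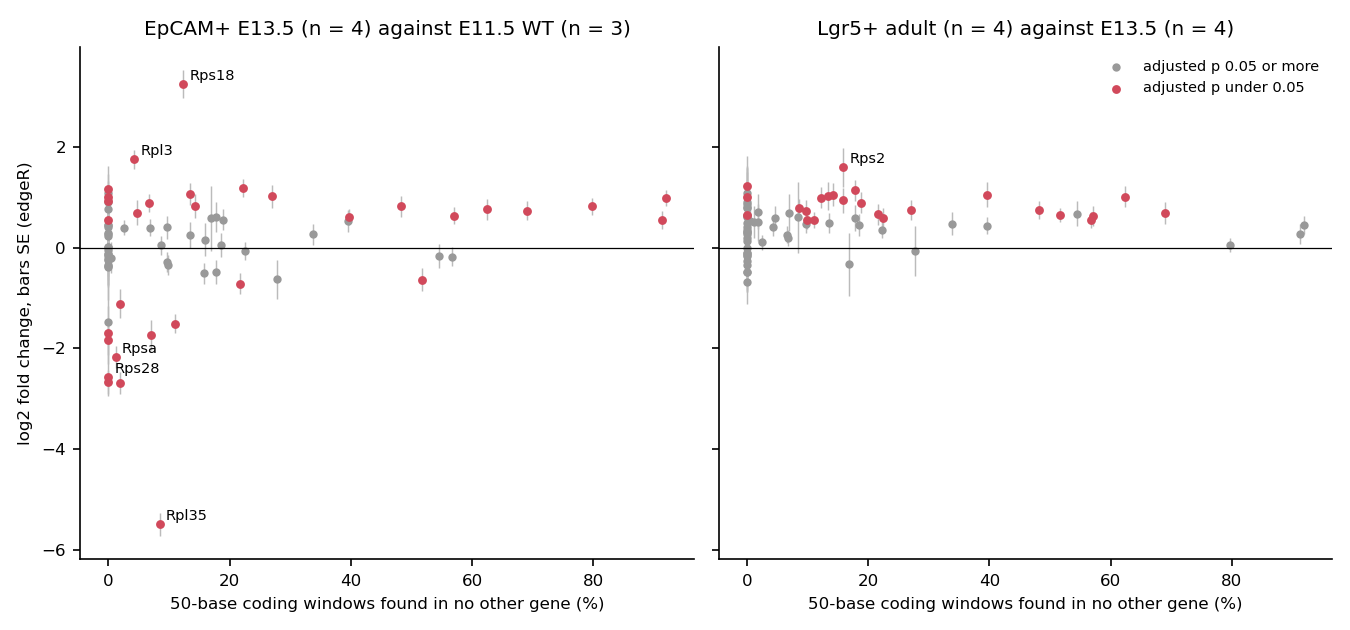
Points are the members tested and drawn, with the percentage of unique 50-base coding windows on the horizontal axis and the log2 fold change with its SE on the vertical; red marks an adjusted p under 0.05. On the left, E13.5 against E11.5 EpCAM+ cells, values span -5.48 for Rpl35 to 3.24 for Rps18 below 20% unique windows and stay between -0.64 and 0.98 above 50%; on the right, adult against E13.5 Lgr5+ cells, all red points are above 0.

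The unsegmented adult Lgr5+ stem cells were higher than E13.5 Lgr5+ cells in 25 members. The adult segment libraries, also of Lgr5+ cells, lay below E13.5 in the members' summed share, as given above. Those were 25 of 76 members, with 0 lower, by edgeR. Over all 13144 genes 35.9% were called, 18.6% higher and 17.3% lower. Counting both directions, the members' share was near the background, but their calls were all higher, while those of all genes went both ways. An unadjusted p under 0.05 was found for 35 members and 5884 genes by edgeR, and DESeq2 called 26 members, all higher. The median was 0.54 over members and 0.02 over all genes. The 6 that rose most were Rps2 by 1.59 ± 0.39 (adjusted p = 0.00675), Rps12 by 1.23 ± 0.39 (0.0258), Rpl37 by 1.13 ± 0.21 (0.00137), the stalk protein Rplp1 by 1.05 ± 0.24 (0.00463), Rps20 by 1.04 ± 0.23 (0.00376) and the exit tunnel protein Rpl39 by 1.02 ± 0.28 (0.0140). Rpl37 was at 65.1, 77.0, 55.2 and 62.6 CPM at E13.5 and 128, 180.3, 105 and 117 CPM in adults, with no overlap. Rps2 was at 63.0, 41.2, 41.8 and 40.5 CPM against 182, 198, 93.0 and 49.2 CPM, so replicate 4 of the adults lay inside the E13.5 range. Rps2 lost its call in the fit of all 15 groups. Rps12 lost its call in the blocked fit, without a filter on low counts and without 1 of 3 libraries.

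Adult stem cell replicate 2 was the highest of its group in the members' summed share, at 3.99% against 2.92 to 3.26%, and without it 20 members were called, 19 higher and 1 lower. Without E13.5 Lgr5+ replicate 3 the count was 16, all higher. Members of the small subunit made up 15 of the 25, and 31 of the 76 tested. All 11 members with over 50% unique coding windows had positive values, and 6 of them passed. Markers of other crypt cells moved with this comparison: 9 of 10 Paneth and goblet genes were higher in the adult cells, and 6 of 8 mesenchyme genes tested were lower. The part of those cells in the members' values was not tested.

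Related gene groups are given by their counts; the calls over all genes are the shares given above for each comparison, and no test set a group against the members. In Id2KO against wild-type E11.5 epithelium and mesenchyme, 0 of 17 TOP translation factors, 0 of 27 ribosome biogenesis genes and 0 of 76 mitochondrial ribosomal protein genes were called, and 0 of the p53 targets, which stalled ribosome assembly is known to induce, among 13 and 11 tested. The TOP factors' median was -0.11 in epithelium and -0.12 in mesenchyme, with 3 and 2 positive values of 17, and the biogenesis genes' median was 0.07 in both. From E11.5 to E13.5, 9 TOP factors were higher and 1 was lower, with a median of 0.51; Eif4b, an initiation factor, rose by 1.06 ± 0.16 and Eif3f, an initiation factor subunit, fell by 2.06 ± 0.18. Mitochondrial ribosomal protein genes were 14 higher and 18 lower of 76, among them Mrps24, which fell by 4.69 ± 0.25. From E13.5 to adult Lgr5+ cells, mitochondrial members were 26 higher and 2 lower, whereas ribosome biogenesis genes were 1 higher and 8 lower of 27. The nucleolar protein gene Nop58 fell by 0.92 ± 0.13 there, and Mycn, which drives ribosome production, fell by 3.84 ± 0.27. In adult libraries labelled Id2KO, 3 of 17 TOP factors were lower, Eef1a1 by -0.27 ± 0.04, and 3 of 27 biogenesis genes, Ncl by -0.32 ± 0.08, while 8 of 9 stress and immediate early genes were higher, Hspa1b by 2.68 ± 0.11. The adjusted p-values of the genes named here ranged from 2.98e-08 to 0.0221 by edgeR.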

How the data were processed

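RNA was measured in 41 libraries. The authors deposited whole-number read counts per gene for each library; per the submitters' processing notes, bcl2fastq 1.8.4, STAR 2.3.1z13, SAMtools 1.2, HTSeq 0.6.1p1, DESeq2 1.6.3 and the mouse build mm9 were used, while the annotation and strand setting are not given in the sources used here. The 5 HTSeq category rows were left out of library sizes and tests. CPM was computed here over the remaining 23366 rows. Multiply aligned reads are absent from the counts, which bears on genes with close copies.

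Each comparison was fitted with edgeR 4.0.16 (TMM, filterByExpr, quasi-likelihood test, Benjamini-Hochberg adjustment over all genes tested, threshold 0.05) in R 4.3.3. The fit was also run on simulated independent libraries with the same spread for every gene. Those hold no effect of embryo or replicate, so the run says nothing on such effects here. The alternatives were DESeq2 1.42.0, other scalings, no filter, a replicate block, all 15 groups in 1 fit, summed adult segments, and leaving out each library. The 5 comparisons of replicate number and of genotype between ages were chosen after seeing the data. The filter left Rpl10l, Rpl26, Rpl3l and, in most comparisons, Rpl39l untested. A few genes, 2 members among them, are counted in totals but not reported here or drawn. The members, lists and tests were chosen with earlier results of these data known.

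Named genes were Rpl29, the paralogues with their parents, Rpsa and Rplp0, the 6 largest rises and falls among called members whose mean reached 5 CPM in a compared group, the 5 highest, lowest, most and least variable members, and up to 3 called genes of each other list; examples are given. Of the 40 library pairs within groups, 0 were identical, with chi-square divided by its degrees of freedom between 23.7 and 238. Deviations of same-numbered libraries correlated at 0.154, 0.252 and 0.123 between the E11.5 Id2KO Lgr5+ and EpCAM+ fractions. Between Id2KO and wild-type EpCAM+ libraries, which differ in genotype and so in embryo, they correlated at 0.111, -0.034 and 0.245. Such correlations therefore do not decide whether libraries were paired, and the labels do not say. Unique windows and base positions came from GENCODE M21 on GRCm38 and start windows from RefSeq, not from the authors' build.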

Additional observations from a re-analysis of the deposited data

Results flagged for a closer look

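Over members whose group mean reached 5 CPM, and over their summed share, 189 sets of 4 libraries were searched for 1 library far from the other 3. In all 19 were found. Chance gives about 1 in 20 for a single set, but these sets share libraries, so the 19 are not separate events and measure no excess. In the adult stem cells, replicate 2 was far above the others for Rpl23 (376.8 CPM), Rpl29 (164.7 CPM), Rpl3 (382 CPM), Rpl8 (1740 CPM), Rps25 (20.37 CPM), Rps26 (663.9 CPM), Rps3 (4383 CPM) and Rps9 (2135 CPM). In E13.5 Lgr5+ cells, replicate 2 stood high for Rpl14 (1377 CPM), Rpl37a (103.3 CPM), Rpl7a (143.4 CPM) and Rps9 (1452 CPM), replicate 3 high for Rpl15 (169.7 CPM) and low for Rpl35a (22.22 CPM), and replicate 1 high for Rps2 (63.02 CPM). In E13.5 EpCAM+ cells, replicate 3 stood low for Rpl15 (104.3 CPM) and Rpl21 (5.7 CPM), and replicate 2 high for Rpl19 (6.15 CPM) and Rpl8 (1564 CPM).

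The Id2KO difference at E11.5 in EpCAM+ cells minus that between adult labels was itself past the threshold for 4 members, by a test of the difference in edgeR: -6.07 for Rpl29, 1.45 for Rpl3, 4.43 for Rps18 and 5.28 for Rps2 on the log2 scale.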

How the results depend on the processing

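Of 150 recomputed counts of called members, 146 stayed within 1.5 times the reported count. The exceptions were wild-type epithelium against mesenchyme, with 6 members called when scaled by library totals alone, anterior against posterior, with 1 without a filter on low counts and 0 to 3 on leaving out 1 library, and adult against E13.5 Lgr5+ cells, with 16 to 29 on leaving out 1 library. With the replicate number as a block, members called went from 33 to 35 (30 shared) for E13.5 against E11.5 and from 25 to 26 (22 shared) for adult against E13.5, and no other count of members moved; same-numbered libraries all correlated above 0.1 in the E11.5 Id2KO Lgr5+ and EpCAM+ pair and, at 0.164, in anterior and posterior segments labelled Id2KO, where 2 libraries a group give both numbers 1 value; in anterior against posterior the block took members at an unadjusted p under 0.05 from 0 to 14. Counts over all genes moved more. DESeq2 called 727 genes against 251 by edgeR for Id2KO in E11.5 EpCAM+ cells, 293 against 121 in EpCAM- cells, 315 against 93 for their difference, 1146 against 476 for Lgr5+ against EpCAM+ cells at E11.5 and 466 against 234 at E13.5, 1651 against 1041 between adult labels and 1241 against 594 for anterior against posterior. With no filter the last 2 were 1760 and 1368, with all 15 groups in 1 fit 329 and 118, and the adult labels gave 470 with segments summed. That 15-group fit gave 145 for EpCAM+, 239 for EpCAM- and 153 for their difference. Leaving out 1 library gave 77 to 301, 64 to 127, 68 to 142, 215 to 554, 157 to 218, 671 to 1010 and 253 to 1004 genes, in the order of the DESeq2 counts. Among single members, signs turned only for values that had not passed the test: in Id2KO against wild type the block gave -0.25 for Rps2 and -0.83 for Rps18 in EpCAM+ cells and -0.38 for Rps18 in EpCAM- cells, leaving out 1 library gave Rps18 -0.56 to 0.75 and -0.54 to 0.84, and adult Rpl29 -0.13 to 0.15. The cause was not tested. Low counts limit Rpl26, Rpl10l, Rpl3l and Rpl39l, which mostly went untested.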
